A study of Mus musculus with 8 samples.

Results

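The genes described here are 9 members of the insulin-like growth factor (IGF) axis and the non-coding RNA H19, 10 in all out of 27554 genes counted in muscle stem cells of the mouse. They are the ligands Igf1 and Igf2, the receptors Igf1r and Igf2r, the binding proteins Igfbp3, Igfbp4, Igfbp5 and Igfbp7, the RNA-binding protein gene Igf2bp2, and H19. They were chosen by name as a gene family, and all 10 passed the filter on low counts that left 11730 genes for testing. They were chosen with the levels of genes in these same 8 libraries and 4 groups in view, with no stated value or threshold, so any difference between the groups may have helped to choose them. The p-values below, which come from a fit over all tested genes, therefore place each member among all genes and are not independent evidence for it.

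Cells were sorted by flow cytometry from hindlimb muscle of C57BL/6NTac mice with 2 engineered alleles, labelled Pax7tm3955(T2A-ZsGreen) and Myf5tm3956(T2A-E2Crimson). All mice thus carried a ZsGreen reporter at Pax7, the transcription factor that marks muscle stem cells, and an E2Crimson reporter at Myf5, a myogenic transcription factor. The 4 groups were Myf5High and Myf5Low cells of females and of males, where High and Low are Pax7-positive cells from the top and the bottom of the E2Crimson range. Each group had 2 libraries and each library came from a pool of 4 mice, so no group gives values of single animals. The pool labels hint, without stating it, that the High and Low libraries of the same sex and number share mice. Where n = 4 is given for a sex below, it counts libraries, which may come from 2 pools. The age of the mice was not given in the sources used here.

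Libraries held 3140361 to 4238427 counts assigned to genes, of which the single transcript Gm42418 took 20.1% to 28.8%. Levels are given as normalised CPM, which are counts scaled to a common library size with Gm42418 included. The muscle stem cell markers were all detected in every library, with Pax7 at 1001 to 1498 CPM and a log2 difference between the fractions of 0.02 (SE 0.170, adjusted edgeR p 0.993). The sorted gene Myf5 had 128, 116, 73.7 and 39.5 CPM in the Myf5High libraries and 25.0, 49.9, 41.9 and 28.7 CPM in the Myf5Low libraries, in the order female 1, female 2, male 1, male 2. Its log2 fold change was 1.19 (SE 0.265, adjusted edgeR p 0.0284), and the groups overlapped in the male libraries. The call for Myf5 was lost without female Myf5High 1, female Myf5High 2, female Myf5Low 1, male Myf5High 1 or male Myf5Low 2, with log2 fold changes of 0.93 to 1.23 and adjusted p of 0.0566 to 0.127. Of the 10 listed stem cell markers, Myf5 and Calcr were called higher in Myf5High and 0 lower, beside 1.2% of all genes tested called in either direction. Markers of other cell types were present in every library, and their levels stand beside the results they move with.

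IGF1 and IGF2 are secreted growth factors that act through the receptor tyrosine kinase IGF1R, while IGF2R binds IGF2 and carries it to the lysosome without signalling for growth. The IGF binding proteins hold the ligands in the extracellular space and can restrain or prolong their action. In muscle, IGF signalling is known to promote growth and the proliferation and differentiation of myoblasts. H19 and Igf2 are neighbours in a cluster of imprinted genes, where H19 is transcribed from the maternal copy and Igf2 from the paternal copy. H19 RNA is also the precursor of the microRNA miR-675.

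The part of H19 that gives rise to miR-675 is shown because it identifies a mature product of the transcript counted here. The hairpin Mir675 lies at chr7:142577064-142577147 on the minus strand of GRCm38.p6 (RefSeq), within an exon of H19, and its first base is base 997 of the H19 gene. In the hairpin the 2 mature arms are in capitals, and in each arm the seed (bases 2 to 8) is in capitals.
Mir675 hairpin: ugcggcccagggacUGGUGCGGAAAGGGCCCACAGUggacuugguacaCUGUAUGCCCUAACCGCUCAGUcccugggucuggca
mmu-miR-675-5p: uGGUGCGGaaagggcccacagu
mmu-miR-675-3p: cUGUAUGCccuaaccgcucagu
Among 1738 mature mouse miRNAs of that RefSeq table, 0 others shared the seed of either arm. The libraries were made from polyadenylated RNA and counted per gene, so they measured H19 RNA and not the mature arms.

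The bases upstream of Igf1 and Igfbp5 are shown because these 2 members were both lower in female than in male libraries. Each sequence is the 250 bases before the RefSeq start of the gene on GRCm38.p6, read 5′ to 3′ along the gene's strand, for Igf1 at chr10:87860861-87861110 (plus strand) and for Igfbp5 at chr1:72874866-72875115 (minus strand). The Igf1 window lies inside the span of the gene in GENCODE, which places the start of Igf1 further upstream, and the end of the Igfbp5 window (chr1:72874866-72874884) also lies inside the GENCODE gene. Capitals mark matches to the E box CANNTG, the core that myogenic bHLH factors such as MYF5 recognise.
Igf1: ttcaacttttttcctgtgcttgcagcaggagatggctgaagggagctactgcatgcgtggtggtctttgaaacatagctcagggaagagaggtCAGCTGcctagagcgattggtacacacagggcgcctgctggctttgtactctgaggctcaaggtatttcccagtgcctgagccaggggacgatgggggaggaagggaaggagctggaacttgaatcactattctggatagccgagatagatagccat
Igfbp5: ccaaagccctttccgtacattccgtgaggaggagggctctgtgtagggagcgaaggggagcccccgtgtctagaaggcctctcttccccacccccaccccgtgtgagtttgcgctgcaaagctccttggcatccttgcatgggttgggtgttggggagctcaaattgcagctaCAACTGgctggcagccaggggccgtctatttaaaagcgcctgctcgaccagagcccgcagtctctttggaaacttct
Each window held 1 E box, and 66.2% of 32851 windows of that length in the table held at least 1. The Igf1 match, CAGCTG, begins 157 bases before the start, and that exact word occurred in 13.0% of windows. The Igfbp5 match, CAACTG, begins 77 bases before the start. Neither window held the TATA box TATAAA, which 12.4% of windows held. Both strands were searched, and matches could overlap. A match to such letters is a description of the sequence and not a binding site.

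H19 was the member that differed between the fractions. H19 (ENSMUSG00000000031, a long intergenic non-coding RNA at chr7:142575529-142578143, minus strand) had 173 and 186 CPM in Myf5High females and 97.0 and 88.2 CPM in Myf5Low females. In males it had 333 and 321 CPM in Myf5High and 121 and 98.9 CPM in Myf5Low. Every Myf5High library lay above every Myf5Low library, and the 2 male Myf5High libraries were the highest of all. The Myf5High mean was 253 ± 85.4 CPM and the Myf5Low mean 101 ± 13.8 CPM (n = 4 each, SD). The fitted difference, which averages the sexes on the log scale, was 2.40-fold, a log2 fold change of 1.26 (SE 0.177). It rose in Myf5High with an adjusted edgeR p of 0.000603, and ranked 23 by p-value among all genes tested. Without any 1 library the log2 fold change ranged from 1.20 to 1.34 and the call held in all 8 fits. In bulk libraries, a smaller share of cells that express a gene and less of its RNA per cell cannot be told apart.

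Of the 10 members, 1 was called between the fractions, beside 1.2% of all genes tested (adjusted edgeR p under 0.05, either direction), and 1 had libraries that did not overlap between the fractions, beside 4.58% of all genes. Since the members were listed with these values in view, nothing is read from those shares. The median log2 fold change of the 10 members was -0.17, and that of all genes tested was -0.02.

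**Figure D1:**
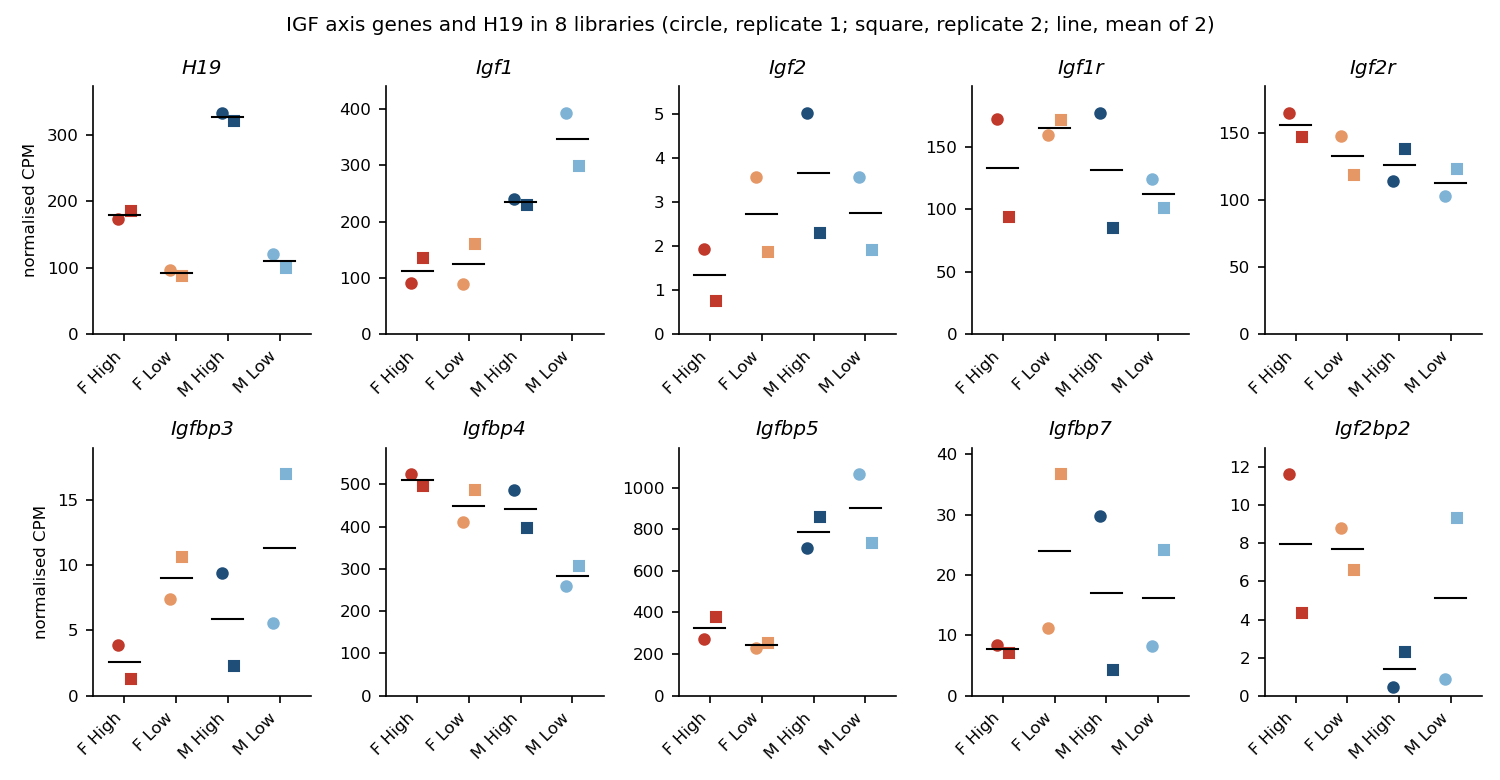
Normalised CPM (vertical axis, from 0, own scale per gene) of the 10 genes in the 4 groups (F, female; M, male; High and Low, Myf5High and Myf5Low), with circles for replicate 1, squares for replicate 2 and a line at the mean of the 2. H19 is above 170 CPM in the 4 Myf5High libraries and at 121 CPM or less in the 4 Myf5Low libraries, and Igf1 and Igfbp5 are higher in all 4 male libraries than in any female one.

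Within each sex H19 kept the same direction. In females the log2 fold change was 0.96 (SE 0.250, adjusted edgeR p 0.151), which was not called, while DESeq2 called it with an adjusted p of 0.0172. In males it was 1.57 (SE 0.252, adjusted edgeR p 0.00974). The male call was lost without male Myf5Low replicate 1 (1.73, adjusted p 0.0599), without male Myf5Low replicate 2 (1.43, adjusted p 0.172) and when only the 4 male libraries were fitted (1.58, adjusted p 0.115). Among all genes 0.332% were called in females and 0.171% in males. The interaction of sex and fraction, which tests whether the 2 log2 fold changes differ, was -0.62 for H19 (SE 0.350, adjusted edgeR p 1.00) and was not called. Over both fractions H19 had 136 ± 50.5 CPM in females against 218 ± 126 CPM in males (n = 4 each, SD), and a log2 fold change of -0.56 (SE 0.175, adjusted edgeR p 0.135, DESeq2 adjusted p 0.0373) and overlapping libraries. The low female and the low male libraries of H19 were close to each other, from 88.2 to 121 CPM.

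Summed markers of other cell types also differed between the fractions, where 1.2% of all genes were called by edgeR and 234 of all 11730 by DESeq2. The 9 listed markers of fibro-adipogenic cells and fibroblasts summed to 737 to 1608 CPM in the Myf5High libraries and 512 to 714 CPM in the Myf5Low libraries, without overlap. Of the 8 that could be tested, Dpt, which encodes the matrix protein dermatopontin, was called higher in Myf5High (log2 fold change 1.05, SE 0.176, adjusted edgeR p 0.00327) and 0 were called lower. Of these 8, 6 had positive log2 fold changes, with a median of 0.18 beside -0.02 for all genes tested. In females alone 4 were positive and 4 negative (median -0.03), and in males 6 were positive and 2 negative (median 0.31). Without Dpt, a sum formed after its values were seen, the list ranged from 408 to 1004 CPM in Myf5High and from 350.2 to 485 CPM in Myf5Low and overlapped. Levels within the list were uneven: Pdgfra, a receptor gene used to mark fibro-adipogenic cells, had 0 to 17 counts per library, and the collagen gene Col3a1 had 529 to 2418. The immune list summed to 18.3 to 45.3 CPM in Myf5High and 53.8 to 94.1 CPM in Myf5Low, also without overlap but in the opposite direction to H19. The committed myoblast list summed to 132 to 606 CPM in Myf5High and 335 to 1032 CPM in Myf5Low, where edgeR called 2 of its 8 tested genes, Myog and Mymk, lower in Myf5High (DESeq2 called Myod1 as well) and Mymk had 0 counts in every Myf5High library. Of 8 tested immune genes edgeR called 1, C1qa, a complement gene of macrophages that was lower in Myf5High, and DESeq2 called C1qa and Lyz2. The glial list (64.4 to 119 CPM in Myf5High, 90.7 to 185 CPM in Myf5Low), the mural list (365 to 504 against 385 to 782 CPM), the myofibre list (120 to 357 against 187 to 356 CPM) and the endothelial list (292 to 558 against 357 to 865 CPM) overlapped between the fractions, and edgeR called 1 gene among them, the mural gene Acta2, lower in Myf5High, while DESeq2 called Acta2 and the endothelial gene Tek. By sign, the other lists had negative values between the fractions for 8 of 8 tested committed myoblast genes (median log2 fold change -2.14), 7 of 8 immune genes (median -1.95), 7 of 7 glial genes (median -0.82), 9 of 10 endothelial genes (median -0.42), 7 of 9 mural genes (median -0.42) and 4 of 11 myofibre genes (median 0.11). For the committed myoblast genes this sign count differed by sex. In females 8 of 8 were negative (median -4.95), while in males 4 were positive and 4 negative (median -0.59). The part of all these cell types in the H19 difference was not tested.

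The genes whose levels were most like those of H19 over the 8 libraries were found by Pearson's r of log2 CPM among 9548 tested genes that averaged 5 CPM or more. They were Kif1b, a kinesin motor (r = 0.96), Nbl1, a secreted BMP antagonist (0.96), Dpt (0.96), Acot9, an acyl-CoA thioesterase (0.95), and Sowahc (0.95). These values describe 8 points that share 4 groups and their library preparation. Dpt alone among these 5 was called between the fractions, and the other 4 had log2 fold changes from 0.48 for Kif1b to 0.80 for Acot9 with adjusted edgeR p from 0.0541 for Sowahc to 0.316 for Kif1b.

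Igf2, the ligand gene whose start lies 88.7 kb from that of H19, was at the lower edge of what these libraries could measure. Igf2 (ENSMUSG00000048583, chr7:142650766-142666816, minus strand) had 6 and 3 counts in Myf5High females, 13 and 8 in Myf5Low females, 21 and 7 in Myf5High males, and 16 and 8 in Myf5Low males. These are 0.764 to 5.04 CPM, beside a floor of 3 counts that equals 0.672 to 0.986 CPM. The groups overlapped throughout. The log2 fold change between the fractions was -0.29 (SE 0.924, adjusted edgeR p 0.977). With so few counts and an approximate SE of this size, a change of Igf2 as large as that of H19 could have been missed. Without 1 library the log2 fold change of Igf2 ranged from -0.70 (without female Myf5High 1) to -0.03 (without female Myf5High 2). In GENCODE release M21 the gene Gm49394, which had 0 counts, shares 3596 of the 5723 exonic bases of Igf2 on the same strand. Reads that fall on both genes may have been left out as ambiguous, so the level of Igf2 is uncertain.

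Around H19 on chromosome 7, 18 of 21 listed genes were in the table and 10 could be tested. Between the fractions 2 were called higher in Myf5High, H19 and Lsp1, and 1 was called lower, Cdkn1c, where 1.2% of all genes tested were called in either direction. The list was drawn around H19 with its values known, so nothing is read from that share. Lsp1, an actin-binding protein known from leukocytes, starts 117.3 kb from H19 and had 70.2, 69.0, 97.7 and 122 CPM in Myf5High against 45.6, 31.8, 28.0 and 34.6 CPM in Myf5Low (in the order given for Myf5). It rose in Myf5High by 1.33 on the log2 scale (SE 0.220, adjusted edgeR p 0.00298). Cdkn1c encodes the cyclin-dependent kinase inhibitor p57 and is, like H19, expressed from the maternal copy; it starts 882.9 kb from H19. It had 9.38, 7.89, 15.1 and 14.8 CPM in Myf5High against 239, 588, 187 and 105 CPM in Myf5Low, and its log2 fold change was -4.43 (SE 0.301, adjusted edgeR p 9.685e-08). Its exons share 625 of 2039 bases with the antisense gene Gm44732, and the strand setting of the counting is not given in the sources used here.

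The other genes between and beyond these did not pass the test. Tnnt3, 79.3 kb from H19, had a log2 fold change of 0.03 (adjusted edgeR p 0.993), and Mrpl23, 45.5 kb away, had -0.45 (adjusted p 0.926). Ins2, Th, Ascl2 and Syt8 had 0 counts in every library. The median log2 fold change of the 10 tested genes, H19 included, was 0.09, beside -0.02 for all genes tested.

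**Figure D2:**
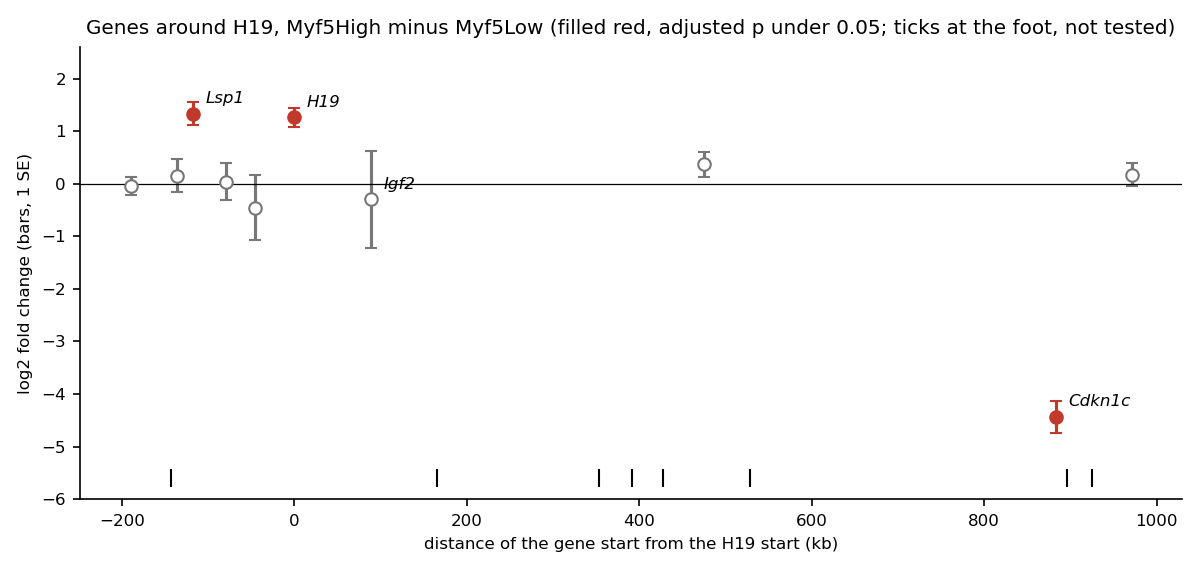
Log2 fold change of Myf5High against Myf5Low (vertical axis, bars 1 SE) for the 10 tested genes around H19, by the distance of each gene's start from that of H19 in kb (horizontal axis), with ticks at the foot for the 8 genes that were not tested. H19 and Lsp1 lie at 1.26 and 1.33, Cdkn1c at -4.43, and the other 7 genes have open symbols.

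A wider list of 22 symbols of imprinted genes, of which 20 were among the genes counted, gave counts in both directions. Of the 19 tested, 1 was called higher (H19) and 1 lower (Cdkn1c) in Myf5High, with a median log2 fold change of 0.00, beside 1.2% of all genes called. Between the sexes edgeR called 2, both lower in females, beside 1.65% of all genes, and DESeq2 called 5, which were these 2 with H19, Mest and Gnas, beside 371 of all 11730 genes. The list holds H19 and was drawn up with earlier results known, so nothing is read from these shares. The edgeR calls were Plagl1, a zinc-finger factor known to regulate other imprinted genes (log2 fold change -0.98, SE 0.243, adjusted edgeR p 0.049), and Slc38a4, an amino acid transporter (-1.45, SE 0.343, adjusted edgeR p 0.0374), both with overlapping libraries. The Plagl1 call was lost without either female Myf5High library, either female Myf5Low library, male Myf5High 2 or male Myf5Low 1 (log2 fold changes -1.05 to -0.64, adjusted p 0.0805 to 0.21). The Slc38a4 call was lost without any of the 4 female libraries or male Myf5Low 1 (-1.65 to -1.21, adjusted p 0.0652 to 0.183). Plagl1 was also lost without the abundant transcript Gm42418 (adjusted p 0.0502), and Slc38a4 when the counts of each pool were summed (adjusted p 0.0804).

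Igf1 was lower in female than in male cells. Igf1 (ENSMUSG00000020053, chr10:87858265-87937042, plus strand) had 90.2 and 136 CPM in Myf5High females, 89.3 and 159.9 CPM in Myf5Low females, 240.4 and 229 CPM in Myf5High males, and 394 and 298 CPM in Myf5Low males. Every female library lay below every male library. The means were 119 ± 35.0 CPM in females against 290.5 ± 75.4 CPM in males (n = 4 each, SD). The fitted difference, which averages the fractions on the log scale, was 2.40-fold, a log2 fold change of -1.26 (SE 0.215, adjusted edgeR p 0.00378). The call held in all 8 fits without 1 library, with adjusted p up to 0.0262. When the High and Low counts of each pool were summed, since they may come from the same mice, the log2 fold change was -1.30 (adjusted edgeR p 0.00926, 2 pools against 2). Between the fractions Igf1 had a log2 fold change of -0.35 (SE 0.212, adjusted edgeR p 0.7), which was -0.11 without female Myf5Low 2 and -0.53 without female Myf5Low 1 and was not called without any 1 library.

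Igfbp5, a binding protein of the extracellular matrix that is known to be made by muscle cells, showed the same order of the sexes. Igfbp5 (ENSMUSG00000026185, chr1:72857932-72874884, minus strand) had 273 and 378 CPM in Myf5High females and 232 and 254.5 CPM in Myf5Low females. In males it had 711 and 860.1 CPM in Myf5High and 1065 and 735 CPM in Myf5Low. The highest female library, at 378 CPM, lay below the lowest male library. Means were 284 ± 64.7 CPM in females against 843 ± 162 CPM in males (n = 4 each, SD), with a fitted 2.99-fold difference and a log2 fold change of -1.58 (SE 0.191, adjusted edgeR p 0.000136). All 8 fits without 1 library kept the call, with adjusted p up to 0.00134, and the summed pools gave -1.57 (adjusted edgeR p 0.000422). The fitted log2 difference between the fractions was 0.11 (SE 0.186, adjusted edgeR p 0.944), while the mean CPM was slightly lower in Myf5High (556) than in Myf5Low (572), so no direction is given.

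Between the sexes 2 of the 10 members were called, both lower in females, beside 1.65% of all genes called in either direction. The same 2 were the members whose female and male libraries did not overlap, beside 7.08% of all genes. Nothing is read from these shares, for the reason given above for the fractions. The sex by fraction interaction was 0.42 for Igf1 (SE 0.424) and 0.62 for Igfbp5 (SE 0.373), both with an adjusted edgeR p of 1.00. Without 1 library it ranged from 0.05 (without female Myf5Low 1) to 0.89 (without female Myf5Low 2) for Igf1 and from 0.31 (without male Myf5Low 1) to 0.87 (without male Myf5Low 2) for Igfbp5. Over all genes the interaction called 0 (0%) with edgeR, where 533 had an unadjusted p under 0.05, and 2 with DESeq2.

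**Figure D3:**
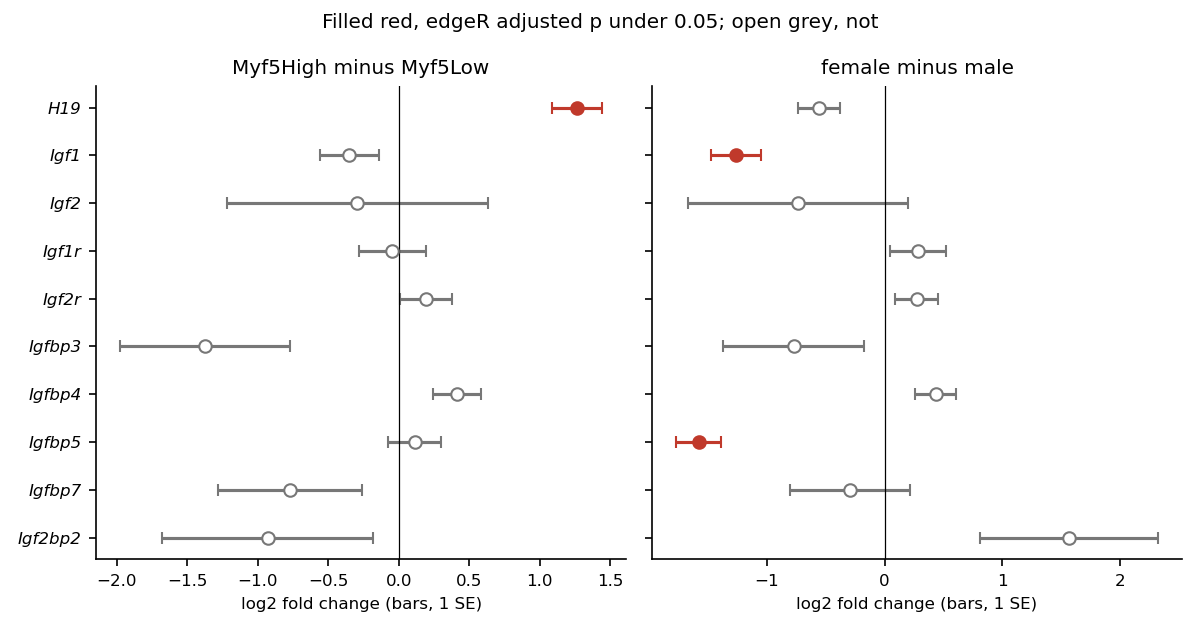
Log2 fold changes (horizontal axes, bars 1 SE) of the 10 genes for Myf5High minus Myf5Low (left) and female minus male (right), with filled red symbols for an adjusted edgeR p under 0.05. H19 alone is filled on the left at 1.26, and Igf1 (-1.26) and Igfbp5 (-1.58) are filled on the right.

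Markers of other cell types were read in the sexes as well, where 1.65% of all genes were called by edgeR, 371 of all 11730 by DESeq2, and 1630 had an unadjusted edgeR p under 0.05. The 10 endothelial markers, all detected in every library, summed to 292 to 484 CPM in female libraries and 452 to 865 CPM in male libraries, with overlap. EdgeR called 1 of them lower in females, Eng, a co-receptor of the TGF-beta family (log2 fold change -1.02, SE 0.241, adjusted edgeR p 0.0381), DESeq2 called Eng and Kdr, and 5 of the 10 had an unadjusted edgeR p under 0.05. The fibro-adipogenic and fibroblast list summed to 512 to 777 CPM in female and 711 to 1608 CPM in male libraries, also with overlap, and edgeR and DESeq2 each called 0 of its 8 tested genes, of which 4 had an unadjusted edgeR p under 0.05. Mef2c was the 1 committed myoblast gene called by edgeR and by DESeq2, lower in females (log2 fold change -1.30, SE 0.322, adjusted edgeR p 0.049). In that list 4 of 8 tested genes were lower in value in females and 5 had an unadjusted p under 0.05. By sign, the endothelial list had negative values (lower in females) for 9 of 10 tested genes (median log2 fold change -0.69), the fibro-adipogenic and fibroblast list for 7 of 8 (median -0.45), the glial list for 6 of 7 (median -0.77) and the myofibre list for 9 of 11 (median -0.53), while the mural list had positive values for 6 of 9 (median 0.43) and the immune list for 5 of 8 (median 0.02), beside a median of -0.02 for all genes. The part of these cell types in the differences of Igf1 and Igfbp5 was not tested.

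Neither receptor was called in any of the 5 comparisons. Igf1r, the signalling receptor (ENSMUSG00000005533, chr7:67952827-68233668), had 172 and 93.7 CPM in Myf5High females, 159.9 and 171.5 CPM in Myf5Low females, 178 and 85.5 CPM in Myf5High males, and 125 and 101 CPM in Myf5Low males. Both Myf5High groups thus held 1 library near the top and 1 at the bottom of the range. Its log2 difference was -0.05 between the fractions (SE 0.239, adjusted edgeR p 0.986) and 0.28 between females and males (SE 0.239, adjusted edgeR p 0.646). The latter was 0.02 without female Myf5High 1 and 0.59 without male Myf5High 1 (adjusted p 0.148).

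Igf2r, the receptor that clears IGF2 (ENSMUSG00000023830, chr17:12682406-12769664), was the steadiest member. Its lowest library had 103 CPM, the median was 130.4 CPM and the highest 165 CPM, a coefficient of variation of 0.157 over 8 libraries against 0.228 to 0.754 for the other 9 genes. The log2 differences were 0.19 between the fractions (SE 0.185, adjusted edgeR p 0.868) and 0.27 between the sexes (SE 0.185, adjusted edgeR p 0.55). The insulin receptor gene Insr had 35.8 to 52.2 CPM and was not called, and Insrr had 0 counts in every library.

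Igfbp4, a binding protein that is known mainly to inhibit IGF action, was abundant in all groups. Igfbp4 (ENSMUSG00000017493, chr11:99041244-99054392) had 524 and 496 CPM in Myf5High females, 411 and 486 CPM in Myf5Low females, 487 and 396 CPM in Myf5High males, and 259 and 308 CPM in Myf5Low males. The 2 male Myf5Low libraries were the lowest, and within each sex both Myf5High libraries lay above both Myf5Low libraries. Neither the difference between the fractions (log2 fold change 0.41, SE 0.172, adjusted edgeR p 0.42) nor that between the sexes (0.43, SE 0.172, adjusted edgeR p 0.251) passed the threshold. With 2 libraries against 2, such a separation is frequent: it held for 5 of 10 members in females, beside 39.1% of all genes, and for 3 of 10 in males, beside 33.1%.

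Igfbp3 and Igfbp7 were low and uneven. Igfbp3, the main carrier of IGFs in blood (ENSMUSG00000020427, chr11:7206086-7213923), had 3.88 and 1.27 CPM in Myf5High females, 7.42 and 10.6 CPM in Myf5Low females, 9.37 and 2.30 CPM in Myf5High males, and 5.60 and 17.0 CPM in Myf5Low males. Igfbp7, a matrix protein abundant in vessels that binds IGFs weakly (ENSMUSG00000036256, chr5:77349240-77408041), had 8.41 and 7.13 CPM, 11.3 and 36.7 CPM, 29.8 and 4.27 CPM, and 8.29 and 24.1 CPM in the same order. The same 3 libraries were the highest for both genes: female Myf5Low 2, male Myf5High 1 and male Myf5Low 2. The log2 differences between the fractions were -1.37 for Igfbp3 (SE 0.604, adjusted edgeR p 0.475) and -0.77 for Igfbp7 (SE 0.511, adjusted edgeR p 0.75). Without 1 library the Igfbp7 value ranged from -1.77 (without male Myf5High 1, adjusted p 0.0928) to -0.23 (without female Myf5Low 2, adjusted p 0.982), and that of Igfbp3 from -2.05 (without male Myf5High 1, adjusted p 0.166) to -0.87 (without male Myf5Low 2, adjusted p 0.866). Exons of Igfbp7 share 85 of 1209 bases with Polr2b on the opposite strand.

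The 3 libraries with the highest Igfbp3 and Igfbp7 were also the highest for Actc1 and for the summed committed myoblast list, which includes Actc1. Actc1, an actin of differentiating muscle, had 87.3 CPM in female Myf5Low 2, 299.7 CPM in male Myf5High 1 and 112 CPM in male Myf5Low 2, against 0.647 to 22.5 CPM in the other 5 libraries. Pecam1, an endothelial marker, was highest in male Myf5Low 2 and female Myf5Low 2, at 128.5 and 109 CPM, and had 57.6 CPM in male Myf5High 1. The endothelial list summed to 484, 528 and 865 CPM in female Myf5Low 2, male Myf5High 1 and male Myf5Low 2, against 292 to 558 CPM in the other 5. The committed myoblast list summed to 1032, 606 and 473 CPM in these 3 libraries, against 132 to 405 CPM in the other 5. This order of the sums rested on Actc1. Without it, male Myf5High 1 and male Myf5Low 2 would lie below female Myf5Low 1, which had 405 CPM with Actc1 included. Single genes of that list did not all follow this order: Myog and Mymk had 0 counts in male Myf5High 1. The part of such cells in the levels of Igfbp3 and Igfbp7 was not tested.

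**Figure D4:**
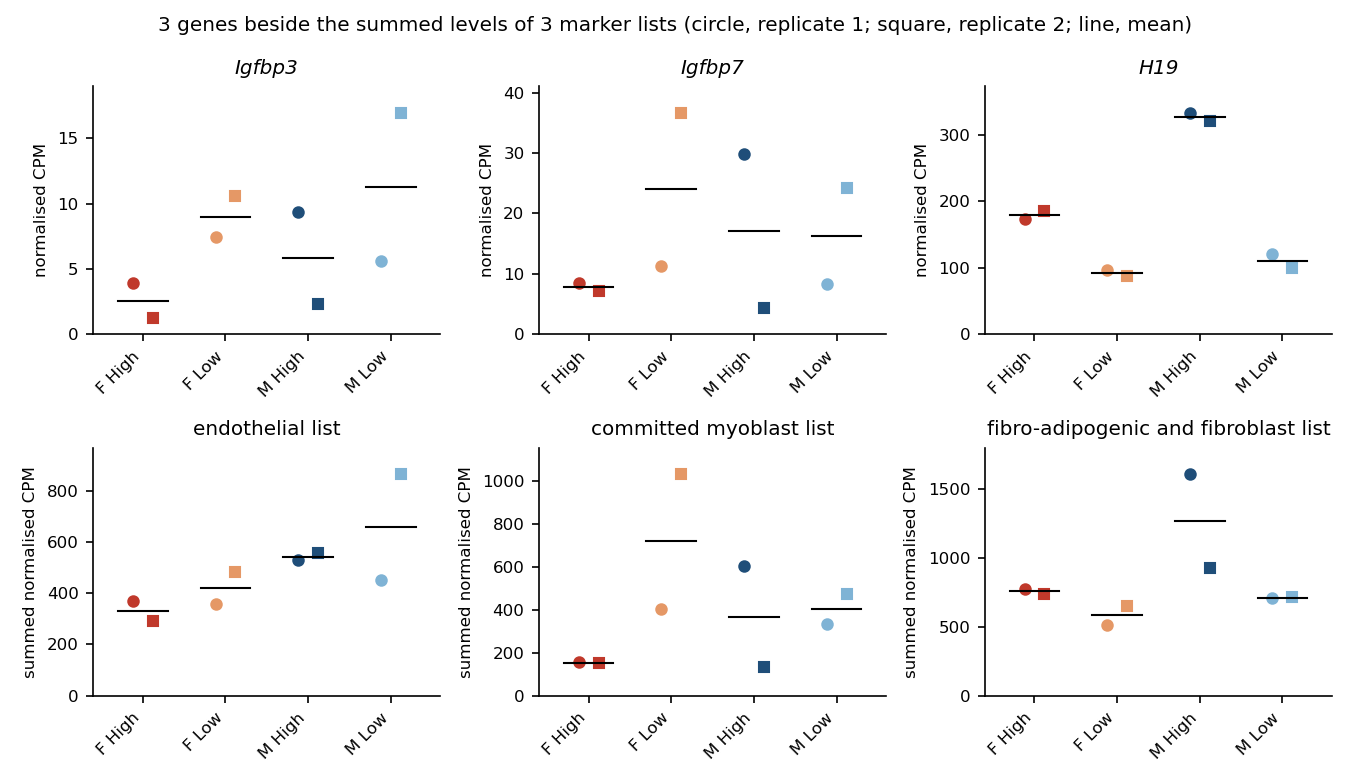
Normalised CPM of Igfbp3, Igfbp7 and H19 (top row) and the summed normalised CPM of the endothelial, committed myoblast, and fibro-adipogenic and fibroblast marker lists (bottom row) in the 4 groups, with circles for replicate 1, squares for replicate 2 and a line at the mean. The committed myoblast sums of 1032, 606 and 473 CPM belong to the 3 libraries in which Igfbp7 is above 20 CPM, an order that rests on Actc1. The fibroblast sums are higher in the 4 Myf5High libraries, as H19 is, an order that is lost without Dpt.

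Igf2bp2 encodes a protein that binds the mRNA of Igf2 and of other genes. Igf2bp2 (ENSMUSG00000033581, chr16:22059009-22163299) had 11.6 and 4.33 CPM in Myf5High females, 8.79 and 6.59 CPM in Myf5Low females, 0.48 (2 counts, under the floor) and 2.30 CPM in Myf5High males, and 0.896 and 9.32 CPM in Myf5Low males. The 3 lowest libraries were male, but male Myf5Low 2 was among the highest. Neither its log2 difference between the sexes (1.57, SE 0.755, adjusted edgeR p 0.367) nor that between the fractions (-0.93, SE 0.748, adjusted edgeR p 0.826) passed the test. Without 1 library the difference between the sexes ranged from 1.11 (without female Myf5High 1, adjusted p 0.736) to 2.80 (without male Myf5Low 2, adjusted p 0.174), and it was not called in any of these 8 fits. The difference between the fractions ranged from -1.64 (without male Myf5High 2, adjusted p 0.439) to 0.31 (without male Myf5Low 2, adjusted p 0.983), so its direction rested on 1 library. Of its relatives, Igf2bp3 had 0 counts throughout and Igf2bp1 had 0 to 15 counts per library and was not tested.

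Levels of the members were compared with each other after division by exon length, as normalised CPM per kb of exon. This length merges the exons of all annotated transcripts of a gene, and the transcripts expressed here may be shorter. The order of the means of 8 libraries was Igfbp4 (95.3), Igfbp5 (93.9), H19 (72.0), Igf1 (20.7), Igf2r (14.2), Igfbp7 (13.4), Igf1r (8.09), Igfbp3 (2.29), Igf2bp2 (0.749) and Igf2 (0.459). Igfbp4 was above Igfbp5 in all 4 female libraries (93.0 to 118.6 against 38.6 to 62.9 CPM per kb) and below it in all 4 male libraries (58.7 to 110.3 against 118.4 to 177 CPM per kb), so their order was opposite in the sexes and the means over 8 libraries do not show it. Igfbp5 was above H19 in 1 of 4 female and 3 of 4 male libraries and Igfbp7 above Igf1r in 4 of 8, and H19 was above Igfbp4 in both Myf5High male libraries (135.5 and 130.3 against 110.3 and 89.6 CPM per kb). These genes are therefore not ordered by their means. Igf1 was above Igf2r in all 4 male libraries (23.1 to 39.8 against 11.1 to 14.8 CPM per kb) but in 1 of 4 female libraries, and Igf2bp2 was above Igf2 in all 4 female but 1 of 4 male libraries. Igf2r was above Igfbp7 in 5 of 8 libraries and Igfbp3 above Igf2bp2 in 6 of 8. H19 was above Igf1, and Igf1r above Igfbp3, in 8 of 8 libraries, although the ranges of all neighbours in this order overlapped across libraries. Igf1 RNA thus stood above that of Igf2 on this per-length scale, within the limit given above for Igf2.

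The rest of the pathway was read from lists of ligands, receptors, binding proteins, proteases and signalling genes, 59 genes in all with members included but without H19. Of these, 49 were tested, and 6 had 0 counts in every library: Ins1, Ins2, Insrr, Igfbp1, Igfbpl1 and Igf2bp3. Between the fractions edgeR called 0 of the 49, beside 1.2% of all genes, and 7 had an unadjusted p under 0.05, beside 1098 of all 11730 genes. DESeq2 called 2, Htra1 and Irs2, beside 234 of all genes. The median log2 fold change of the 49 was -0.01. The 31 signalling genes from Irs1 to Socs3 had 16 positive and 15 negative log2 fold changes and a median of 0.01. EdgeR called 0 of the 31 between the fractions, where 2 had an unadjusted p under 0.05, and DESeq2 called 1, Irs2. Against the counts over all genes just given, 0 calls among so few genes is near the background and says nothing particular about them.

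The closest to the threshold among proteases of binding proteins was Htra1, a secreted serine protease that can cleave IGFBP5. It had 28.8, 33.4, 63.6 and 71.3 CPM in Myf5High and 16.8, 22.8, 28.9 and 27.0 CPM in Myf5Low, and its log2 fold change of 0.96 (SE 0.241) had an adjusted edgeR p of 0.0637, while DESeq2 called it. Pappa, whose product cleaves IGFBP4, had 0 to 46 counts per library. Igfbp6 had 1.62 to 12.9 CPM and Igfbp2 had 0 to 12.3 CPM, and neither was called between the fractions or between the sexes.

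Between the sexes edgeR called 3 of the 49 tested pathway genes, with Igf1 and Igfbp5 lower in females and Irs2 higher, where 10 had an unadjusted p under 0.05. Of all genes tested, 1.65% were called in this comparison, and Igf1 and Igfbp5 are members already described above. DESeq2 called 4, these 3 and Ctsd. Irs2, an adaptor that links the IGF1 and insulin receptors to PI3-kinase, had 362.5, 238, 219.5 and 191.5 CPM in female libraries and 190.0, 191.3, 99.0 and 109 CPM in male libraries, in the order High 1, High 2, Low 1, Low 2. Its female and male libraries were separated by a narrow gap, and the log2 fold change was 0.82 (SE 0.186, adjusted edgeR p 0.0297). The Irs2 call was lost without female Myf5High 1, female Myf5Low 1, female Myf5Low 2, male Myf5Low 1 or male Myf5Low 2, with log2 fold changes of 0.63 to 0.86 and adjusted p of 0.0659 to 0.261. The median log2 fold change of the 49 genes between the sexes was -0.01, beside -0.02 for all genes tested.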

How the data were processed

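The authors deposited whole-number counts of reads per Ensembl gene, not normalised, made with HTSeq on GRCm38 per the submitters' processing notes. The aligner, annotation release and strand setting are not given in the sources used here. Groups come from the sample titles, and no column was left out (0 unused). Tallies of unassigned reads (no feature, 42.0% to 45.3% of reads, and ambiguous, 0.248% to 0.296%) were kept out. Of 27554 genes, 27518 matched GENCODE M21, the source of symbols, coordinates and exon lengths.

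Counts were fitted in R 4.3.3 with edgeR 4.0.16: filterByExpr (minimum count 10, minimum total 15), TMM scaling, 1 mean per group over all 8 libraries, and two-sided quasi-likelihood tests with Benjamini-Hochberg adjustment over 11730 genes. Called means an adjusted p under 0.05. The SE is an approximation, the absolute log2 fold change divided by the square root of the quasi-likelihood F statistic. The common biological coefficient of variation was 0.36. Floors of 3 counts cover counting error only. DESeq2 1.42.0, RLE scaling, no filter, an additive model, a pool block, summed pools, single-sex fits and fits without Gm42418 or without each library were alternatives. The members, all gene lists (pathway, neighbouring, imprinted and cell type marker genes) and these tests were chosen with earlier results of these data known. All 10 members are named, with listed genes where called or of the same family, and the 5 genes most like H19 (Pearson's r of log2 CPM, prior count 2).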

Additional observations from a re-analysis of the deposited data

Results flagged for a closer look

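Within arms of 4 libraries (both groups of a fraction or of a sex), 3 of 40 tested sets of values held a library far from the other 3. For independent, normally distributed sets chance would give about 1 in 20, or 2 of 40. The sets used here share libraries and each mixes 2 groups, so the number to be had by chance is not known. Igf1r in female Myf5High replicate 2 had 93.7 CPM against 159.9 to 172 CPM in the other 3 female libraries. Igfbp7 in male Myf5High replicate 1 had 29.8 CPM against 4.27 to 8.41 CPM in the other 3 Myf5High libraries. Igfbp7 in female Myf5Low replicate 2 had 36.7 CPM against 7.13 to 11.3 CPM in the other 3 female libraries.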

How the results depend on the processing

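The calls for H19 between the fractions and for Igf1 and Igfbp5 between the sexes held under each of the 6 other settings fitted for them and without each library. Counts of called genes moved more. In the order Myf5High against Myf5Low over both sexes, in females, in males, the interaction, and female against male, the report's fit called 141, 39, 20, 0 and 194 genes. No filter gave 291, 167, 111, 14 and 477, and DESeq2 gave 234, 112, 72, 2 and 371. With only the libraries of 1 sex, 77 genes were called in females and 2 in males. Leaving out 1 library gave 82 to 243, 9 to 117, 8 to 74, 0 to 8, and 82 to 558. For both sexes the counts past 1.5 times came without female Myf5High 1 (85), female Myf5Low 2 (82) and male Myf5High 2 (243). In females they came without female Myf5High 1 (18), female Myf5High 2 (15), female Myf5Low 2 (9), male Myf5High 1 (117) and male Myf5High 2 (113). In males they came without male Myf5High 1 (41), male Myf5High 2 (74), male Myf5Low 1 (8) and male Myf5Low 2 (10). The interaction called 7 without male Myf5High 1 and 8 without male Myf5High 2. Between the sexes the counts were 99 without female Myf5High 1, 114 without female Myf5High 2, 82 without female Myf5Low 2 and 558 without male Myf5High 1. The cause was not tested.

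Among uncalled members, leaving out 1 library turned the sign of the log2 fold change between the fractions for Igf1r (-0.36 to 0.17), Igf2bp2 (-1.64 to 0.31) and Igfbp5 (-0.0148 to 0.2604), and between the sexes for Igfbp7 (-0.83 to 0.71). Between the sexes the values of Igfbp3 (-1.27 to -0.10) and Igf2 (-1.14 to -0.40) kept their sign and were not called. With the pool as a replicate block, 136, 33, 26 and 0 genes were called in the first 4 comparisons. Deviations of same-numbered libraries from their group means correlated at 0.03 in females and -3e-04 in males. With 2 pairs each, these values cannot decide whether such libraries share mice, which the pool labels hint at without stating it. The main fit used no pairing, and the block is given as an alternative. The block could not be fitted for the comparison of the sexes. Every scaling moved the median of all genes by less than 0.1 (log2). Low counts limit Igf2, at 3 to 21 counts per library, and Igf2bp2, at 2 to 39.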
